A study of Homo sapiens with 12 samples.

Results

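The genes of the human histone clusters were followed in poly-A-selected RNA of B-cell leukaemia lines. Rows of the count table were taken where the symbol was H1-1 to H1-5, or began with H2AC, H2BC, H3C or H4C and a number, or with HIST1, HIST2 or HIST3 in the older naming. Of 76 such rows, 13 were pseudogenes and 16 had fewer than 10 counts summed over the 12 libraries, which left 47 genes of 59611 rows in the table. By histone type these were 4 H1, 10 H2A, 14 H2B, 9 H3 and 10 H4 genes. GENCODE placed 43 of them on chromosome 6 and 4 on chromosome 1. Just inside the minimum lay H4C14 with 11 counts and H2BC3 with 15, and just outside it H2AC4 and H4C13 with 8 counts each and H2AC21 and H3C13 with 7 each.

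Histone cluster genes make the bulk of the histones that package newly copied DNA. H1 is the linker histone, and H2A, H2B, H3 and H4 form the core of the nucleosome. Their messages are made mainly in S phase and usually end after a short stem-loop instead of a poly-A tail. The stem-loop is bound by SLBP, and cleavage behind it needs the U7 small nuclear RNA. Several cluster genes can also give a polyadenylated message from a site further downstream. Poly-A selection retains that form, together with a variable residue of RNA that has no tail, so the levels below are not levels of total histone mRNA.

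Stranded RNA-seq was made from KOPN-8 and 697, which are both B-lineage acute lymphoblastic leukaemia lines. Edited KOPN-8 (clone BA) and edited 697 (clone BM_B) are 1 clone each, made with a guide RNA against SETD2, the main enzyme that trimethylates histone H3 at lysine 36, and their genotype label is heterozygous knockout. Control KOPN-8 and control 697 carried an empty guide RNA vector and are labelled SETD2 wild type. Each of the 4 groups had 3 libraries, called biological replicates in the labels, with 10378769 to 18278662 counts per library. The tests weigh a clone against the spread of libraries grown from it and from its control, so the edit cannot be told apart from other differences of the clone. In bulk RNA, fewer cells with a message and less of it per cell cannot be told apart.

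SETD2 stood at 161, 151 and 162 CPM (counts scaled to a common library size, with TMM factors) in edited KOPN-8, against 159, 171 and 177 in control KOPN-8. It stood at 207, 211 and 238 CPM in edited 697, against 156, 158 and 169 in control 697. An edited allele may still be transcribed, so these levels do not check the genotype. The summed level of 10 B-lineage markers ran from 3878 to 5357 CPM over the libraries, with DNTT at 2.02 CPM in control KOPN-8 and 1966 CPM in control 697, and MME at 967 CPM in control KOPN-8 and 3.71 CPM in control 697. The 12 markers of other cells summed to 59.1 to 68.2 CPM in edited KOPN-8, 54.6 to 59.4 CPM in control KOPN-8, 12.8 to 15.8 CPM in edited 697 and 5.82 to 8.44 CPM in control 697. CD3D, HBA1, HBB and EPCAM had no count. Of the 10 B-lineage markers, 4 were called higher and 4 lower with the KOPN-8 edit (adjusted p under 0.05 by edgeR). With the 697 edit 4 were called higher and 1 lower. Over all genes tested, 11.5% were higher and 17.2% lower with the KOPN-8 edit, and 4.85% and 4.6% with the 697 edit. The markers thus moved with the lines and with both edits, and their part in the histone values was not tested. The third control 697 library stood apart from the other two in its histone counts, and the sums and counts of calls against control 697 are given with and without it.

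The stem-loop is shown for genes described below whose model holds it, to show how closely their ends resemble each other. H2AC20, H3C6 and H2BC11, which were called for an edit, have none in their models. It was found in the GENCODE v29 (GRCh38) model of 20 of the 47 genes, which is 42.6%, against 0.0665% of all 58676 GENCODE genes. Capitals mark the stem-loop, on the sense strand.

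H2AC6: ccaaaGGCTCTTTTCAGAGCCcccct
H2AC11: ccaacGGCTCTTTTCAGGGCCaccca
H2BC5: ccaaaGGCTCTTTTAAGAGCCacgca
H2BC21: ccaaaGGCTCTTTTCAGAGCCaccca
H3C8: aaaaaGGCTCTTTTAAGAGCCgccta
H4C8: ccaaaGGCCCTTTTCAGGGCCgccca
H4C9: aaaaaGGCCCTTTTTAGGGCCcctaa

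The form seen in H2AC6 and H2BC21 was shared by 10 of the H2A, H2B and H3 genes. The form of H2BC5 and H3C8 was also that of H2BC4. Of the 6 H4 genes with a stem-loop in the model, 4 had the form of H4C8 and 2 that of H4C9. In 13 of the 20 genes the model ran on for at least 200 bases after the stem-loop, and in 7 it stopped sooner. A model without a stem-loop says only that these letters are not in the annotated transcript.

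Promoters were read as the 250 bases before the RefSeq start, which the RefSeq table (GRCh38.p14) held for 41 of the 47 genes. Because the submitters name hg19 as their build, these coordinates apply to GRCh38.p14 only. Promoters are printed for H1-2 and H4C8, the genes of their types with most counts, and for H2AC20, which was called in 3 of the 4 comparisons. Capitals mark motifs searched on both strands. These were the octamer ATTTGCAT, the box CCAAT, the box with the letters TATAAA and the H1 box with the letters AAACACA. The windows are chr6:26056471-26056720 on the minus strand for H1-2, chr1:149886668-149886917 on the plus strand for H2AC20 and chr6:26285535-26285784 on the minus strand for H4C8.

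H1-2: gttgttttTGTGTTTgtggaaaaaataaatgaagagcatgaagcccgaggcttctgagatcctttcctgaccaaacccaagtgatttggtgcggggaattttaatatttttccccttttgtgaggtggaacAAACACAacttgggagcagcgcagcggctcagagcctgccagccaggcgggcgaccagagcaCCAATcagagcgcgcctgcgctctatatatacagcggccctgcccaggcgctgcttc
H2AC20: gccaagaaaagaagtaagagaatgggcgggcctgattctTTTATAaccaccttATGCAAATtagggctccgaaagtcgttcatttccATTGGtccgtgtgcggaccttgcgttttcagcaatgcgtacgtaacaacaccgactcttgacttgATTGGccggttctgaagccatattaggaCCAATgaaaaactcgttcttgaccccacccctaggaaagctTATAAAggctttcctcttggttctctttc
H4C8: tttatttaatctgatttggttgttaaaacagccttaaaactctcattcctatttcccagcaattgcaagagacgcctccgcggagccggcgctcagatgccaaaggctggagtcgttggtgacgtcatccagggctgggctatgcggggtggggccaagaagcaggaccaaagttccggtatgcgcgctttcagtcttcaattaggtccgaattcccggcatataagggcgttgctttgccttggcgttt

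Motif content followed histone type. The octamer was in 7 of 9 H2A and 11 of 14 H2B promoters and in 0 of the 4 H1, 7 H3 and 7 H4 promoters, against 1.66% of all 27305 promoters. The H1 box was in 4 of 4 H1 promoters and in none of the other members, against 4.95% of all promoters. CCAAT was in every H1, H2A, H2B and H3 promoter read and in 1 of 7 H4 promoters, against 33.0% of all. TATAAA was in 27 of the 41, which is 65.9%, against 11.1% of all. The window of H4C8 held none of the 4. None of these motifs contains another. Head-to-head neighbours such as H2AC20 and H2BC21 share most of the bases of their windows, so their promoters are not independent.

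The 47 genes were weakly and unevenly represented. Their summed level was 54.1 ± 6.76 CPM in edited KOPN-8, 59.7 ± 5.84 CPM in control KOPN-8, 128 ± 12.5 CPM in edited 697 and 142 ± 22.7 CPM in control 697 (SD, n = 3 each). The 5 highest genes held 57.2% of the summed level over the 12 libraries and the 7 highest held 67.3%, while 16 genes averaged at least 1 CPM. Per kilobase of GENCODE exon length, H2BC12, a gene for H2B, averaged 42.5 CPM, H1-2, the most abundant linker histone gene here, 14.999 CPM, H2AC6, a gene for H2A, 8.70 CPM and H2BC5, a gene for H2B, 8.04 CPM. The model of H2BC12 holds only 381 bases, and RefSeq draws this gene longer and overlapping H4C9 on the opposite strand. Its level per kilobase therefore rests on the model used, and the authors' counting settings are not stated.

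Genes with longer models had more counts. The 15 genes with a GENCODE transcript of 900 bases or more had a median of 419 counts over the 12 libraries, and 14 of them passed the filter on low counts. The 9 genes with 500 to under 900 bases had a median of 139 counts, and 7 passed. The 23 genes under 500 bases had a median of 37 counts, and 4 passed. These counts are not scaled by length. Per kilobase of exon length the median levels were 1.08, 1.09 and 0.565 CPM in the same order. The longest class thus did not stand above the middle class. Cluster genes of the same histone type can have similar coding sequences, and the treatment of reads that match several copies is not stated. In 20 of the 47 models every window of 50 bases was unique among GENCODE transcripts of other genes, while in 7 fewer than 50% of the windows were, among them H2BC12 with 25.9%.

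**Figure D1:**
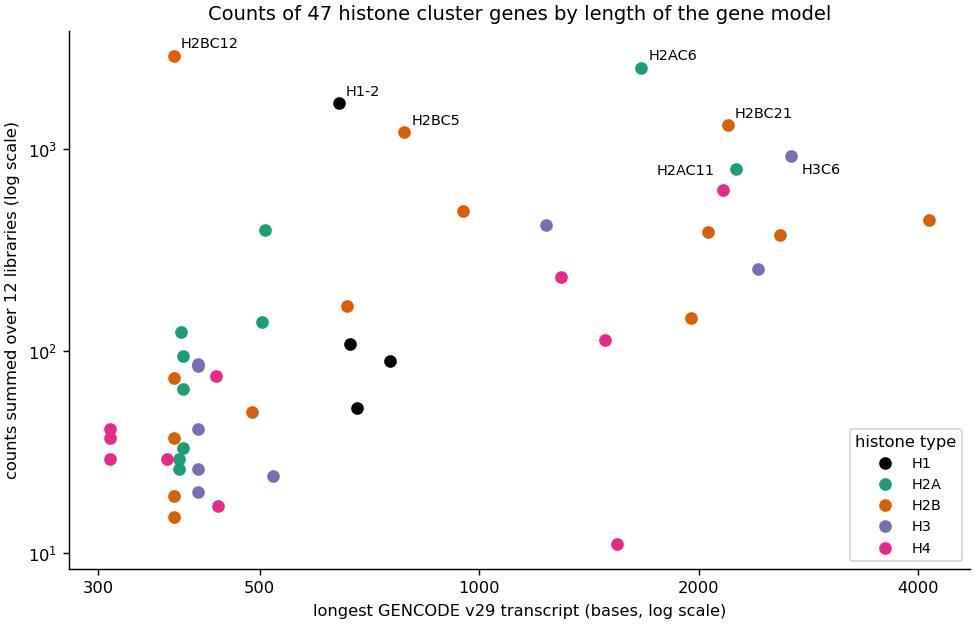
Counts summed over 12 libraries (vertical, log scale) against the longest GENCODE v29 transcript in bases (horizontal, log scale) for 47 histone cluster genes, 1 point a gene, coloured by histone type. The genes under 500 bases mostly lie below 100 counts, with H2BC12 at 2898 counts standing apart from them.

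Members that were called between the lines were all lower in control KOPN-8 than in control 697, 19 of the 25 tested. The summed level was 66.3, 55.4 and 57.2 CPM in control KOPN-8, against 156, 154 and 116 CPM in control 697. The groups did not overlap, although the third control 697 library lay well under the other two. The log2 ratio was -1.25, and -1.38 without that library, a setting added after the data were seen. By type the log2 ratio of the sums was -1.17 for H1, -1.43 for H2A, -1.17 for H2B, -1.22 for H3 and -1.28 for H4, and in each type every control KOPN-8 library lay below every control 697 library. Without the third control 697 library these were -1.21 for H1, -1.65 for H2A, -1.28 for H2B, -1.29 for H3 and -1.38 for H4. Without H1-2, the H1 gene with most counts, the H1 ratio was -0.49. These sums carry no test. Shares of the sum were alike, with H2B at 46.8% in control KOPN-8 and 44.3% in control 697, and H2A at 23.6% in control KOPN-8 and 26.7% in control 697.

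**Figure D2:**
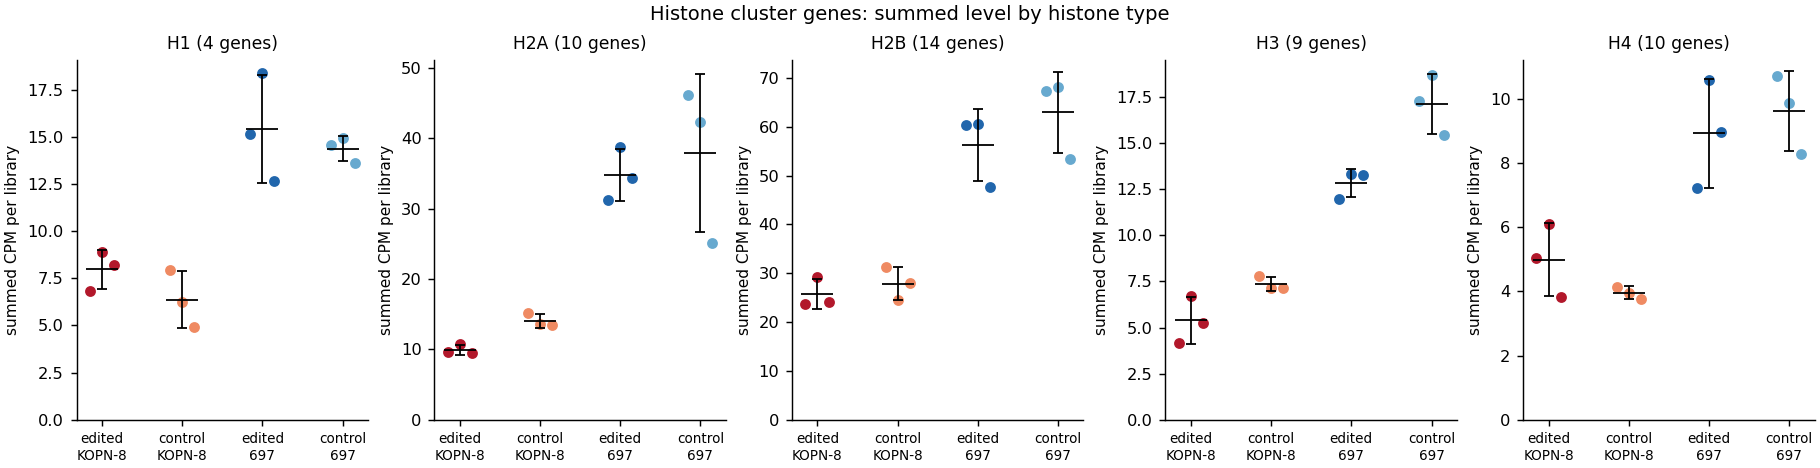
Summed CPM per library (vertical) by histone type in edited KOPN-8, control KOPN-8, edited 697 and control 697. Points are libraries, lines the mean and bars the SD (n = 3). In each type the control KOPN-8 libraries lie below the control 697 libraries, as for H2A at 13.5 to 15.2 CPM against 25.1 to 46.2 CPM.

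In the fit of all 15218 genes that passed the filter on low counts, 25 of the 47 were tested, of which 19 were called lower in control KOPN-8 and 0 higher (Benjamini-Hochberg adjusted p under 0.05 by edgeR's quasi-likelihood test). Over all genes tested, 36.7% were lower and 36.6% higher. At an unadjusted p under 0.05 edgeR had 1 member higher, H2BC4, and DESeq2 had 0. A fit of all 20809 genes with at least 10 counts covered all 47 genes, of which 24 were called lower and 0 higher, against 30.6% and 30.1% of the genes in that fit. The 5 further calls were H2BC10, H2BC17, H4C3, H4C4 and H4C11. In this fit 43 of the 47 log2 fold changes were below 0, with a median of -1.20 against -0.05 over all genes. Without the third control 697 library, 22 of the 47 were called lower and 0 higher. The ranges of the libraries did not overlap for 24 genes lower and for 1 higher, against 33.6% lower and 31.8% higher over all 20809 genes.

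Among genes for linker histones, which bind DNA between nucleosomes, H1-2 had by far the most counts. It stood at 6.16, 5.30 and 4.40 CPM in control KOPN-8, against 12.5, 13.7 and 12.4 CPM in control 697, with no overlap. The log2 fold change was -1.30 (SE 0.157, Benjamini-Hochberg adjusted p = 7.66e-08 by edgeR). H1-3 was called at -1.38 (SE 0.561, Benjamini-Hochberg adjusted p = 0.0311 by edgeR), on 8, 6 and 1 counts in control KOPN-8 and 19, 12 and 6 counts in control 697. Its call was lost with DESeq2 and without control KOPN-8 library 2 or 3 or control 697 library 1, and without control KOPN-8 library 1 it stood at -1.998. H1-4 stood at 0.416 ± 0.283 CPM in control KOPN-8 and 0.431 ± 0.300 CPM in control 697 (SD, n = 3 each), a log2 fold change of -0.11 that was not called. H1-5, with 16 counts in control KOPN-8 and 13 in control 697, did not pass the filter.

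The largest differences among the tested genes were in H2A genes. H2AC6 stood at 8.90, 7.86 and 7.23 CPM in control KOPN-8, against 31.5, 26.3 and 13.9 CPM in control 697, a log2 fold change of -1.59 (SE 0.226, Benjamini-Hochberg adjusted p = 1.48e-05 by edgeR). H2AC8, another H2A gene, stood at 0.594, 0.582 and 0.543 CPM in control KOPN-8, against 5.10, 5.20 and 3.31 CPM in control 697. Its log2 fold change was -2.98 (SE 0.281, Benjamini-Hochberg adjusted p = 1.08e-09 by edgeR). Neither gene overlapped between the lines, and in both the third control 697 library was the lowest of its group. H2AC20, an H2A gene of the chromosome 1 cluster, had 3, 4 and 1 counts in control KOPN-8, against 20, 26 and 24 counts in control 697. Its log2 fold change was -3.19 (SE 0.546, Benjamini-Hochberg adjusted p = 1.39e-05 by edgeR). Only 69.5% of the 50-base windows of H2AC20 were unique to it. H2AC11 overlapped between the lines and had the smallest called difference among all members, with a log2 fold change of -0.54 (Benjamini-Hochberg adjusted p = 0.0205 by edgeR). Its call was lost without control KOPN-8 library 2 or control 697 library 1 or 2. H2AC13 and H2AC15 were not called.

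H2B genes made the greatest part of the sum and 7 of the 9 tested were called lower. H2BC5 stood at 2.82, 2.04 and 2.45 CPM in control KOPN-8, against 12.03, 13.5 and 10.4 CPM in control 697, a log2 fold change of -2.31 (SE 0.216, Benjamini-Hochberg adjusted p = 1.49e-09 by edgeR). H2BC21 stood at 4.60, 4.48 and 3.97 CPM in control KOPN-8, against 13.5, 13.3 and 9.94 CPM in control 697, a log2 fold change of -1.50 (SE 0.156, Benjamini-Hochberg adjusted p = 6.38e-09 by edgeR). H2BC12 stood at 13.1, 10.7 and 12.1 CPM in control KOPN-8, against 25.0, 22.7 and 16.3 CPM in control 697. Its log2 fold change, -0.84 (SE 0.150, Benjamini-Hochberg adjusted p = 2.89e-05 by edgeR), was smaller than that of H2BC5. In these 3 genes no control KOPN-8 library reached a control 697 library. H2BC18, H2BC9, H2BC15 and H2BC11 were called at -2.29, -1.72, -1.09 and -0.77 on the log2 scale, and H2BC6, at -0.38, was not called. Without control KOPN-8 library 1, which held 10 of the 16 counts of its group, H2BC18 stood at -3.22.

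H2BC4 was 1 of 2 tested members with a log2 fold change above 0, beside H3C2. It had 14, 18 and 24 counts in control KOPN-8, or 1.04, 1.05 and 1.30 CPM, against 7, 12 and 9 counts in control 697, or 0.458, 0.726 and 0.678 CPM. The ranges did not overlap and control KOPN-8 was higher, but the log2 fold change of 0.87 (SE 0.400, Benjamini-Hochberg adjusted p = 0.0554 by edgeR) was not called. It was called in a fit of only those control groups (Benjamini-Hochberg adjusted p = 0.0299 by edgeR), and its adjusted p was 0.0561 in the fit of all genes with at least 10 counts. H2BC4 lies head to head with H2AC6, whose log2 fold change was -1.59. The difference within this pair was not tested. Of 9 such pairs among the members, 4 had both genes tested, and in the other 3 of these both log2 fold changes were below 0.

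Among the tested genes, 3 of 4 H3 genes and 3 of 3 H4 genes were called lower in control KOPN-8. H3C6, one of the genes for histone H3.1, stood at 4.01, 3.79 and 3.53 CPM in control KOPN-8, against 9.55, 9.38 and 5.65 CPM in control 697, a log2 fold change of -1.13 (SE 0.205, Benjamini-Hochberg adjusted p = 2.93e-05 by edgeR). H3C10, another H3.1 gene, stood at 1.11, 1.05 and 1.30 CPM in control KOPN-8, against 4.18, 5.14 and 4.44 CPM in control 697, a log2 fold change of -1.98 (SE 0.228, Benjamini-Hochberg adjusted p = 3.47e-08 by edgeR). H3C8 was called at -1.28, and the groups did not overlap for any of the 3. H3C2, at 0.559 ± 0.134 CPM in control KOPN-8 and 0.399 ± 0.120 CPM in control 697 (SD, n = 3 each), was not called, with a log2 fold change of 0.50. Among genes for H4, H4C8 stood at 1.78, 2.50 and 2.01 CPM in control KOPN-8, against 6.08, 4.84 and 3.46 CPM in control 697. Its log2 fold change was -1.19 (SE 0.238, Benjamini-Hochberg adjusted p = 9.59e-05 by edgeR). H4C5 and H4C9 were called at -1.91 and -0.84, and the call of H4C9 was lost without control KOPN-8 library 2 or 3 or control 697 library 2. H4C11, which did not pass the filter, had 1 count in control KOPN-8 and 21 counts in control 697.

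**Figure D3:**
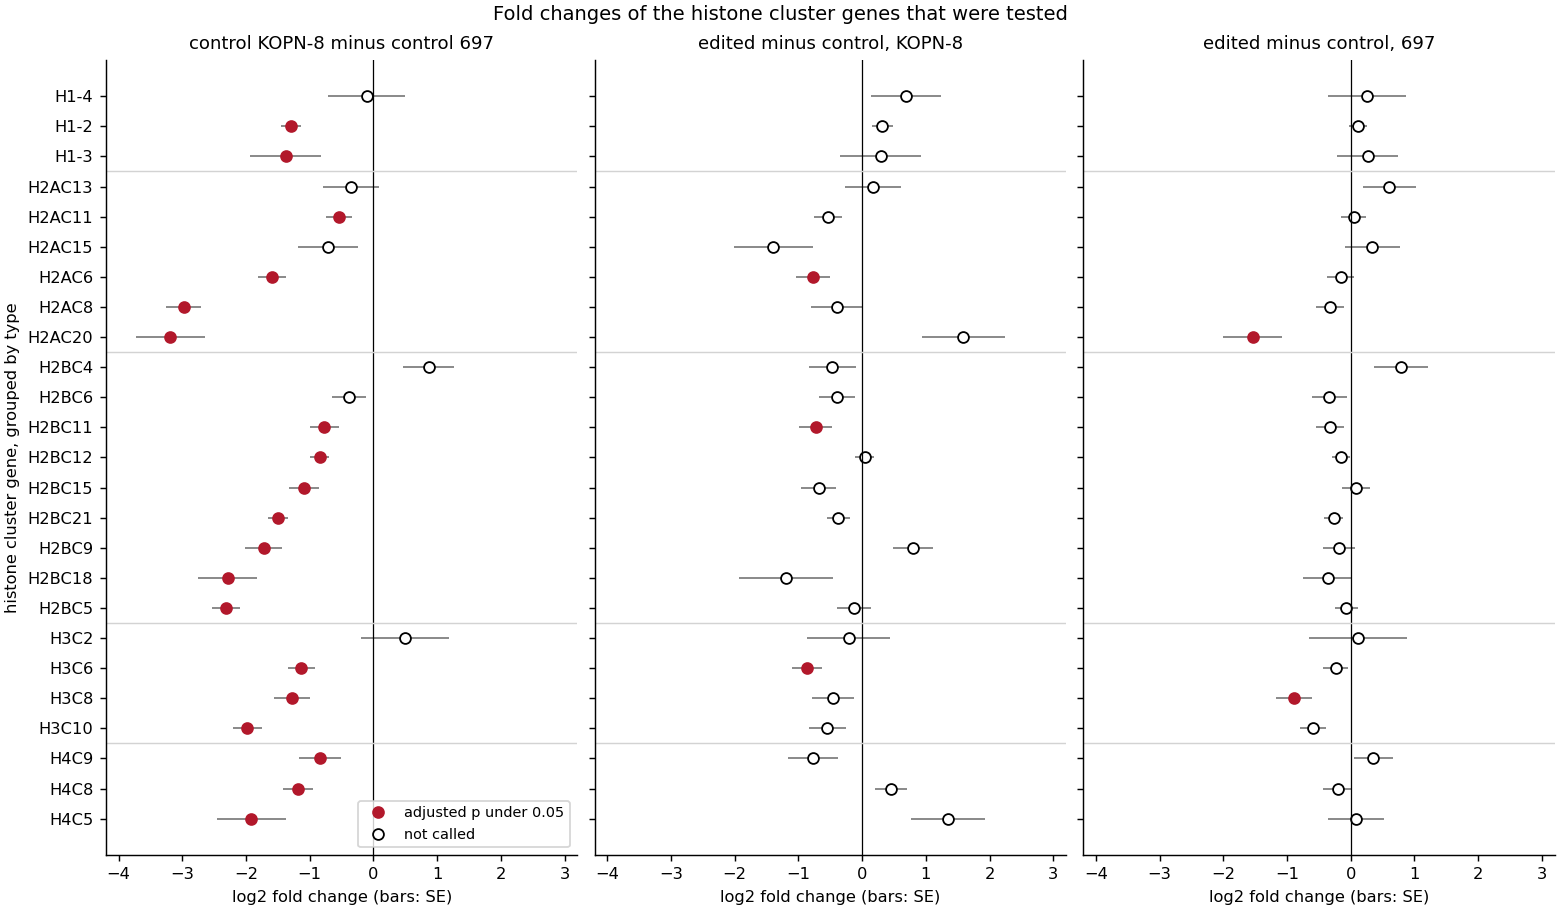
Log2 fold change (horizontal, bars: SE) of the 25 histone cluster genes that were tested (vertical, grouped by type) for control KOPN-8 minus control 697 and for edited minus control in each line. Filled points have an edgeR adjusted p under 0.05: 19 for the lines, 3 for the KOPN-8 edit and 2 for the 697 edit, all below 0.

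Genes that serve histone messages were more often higher than lower in control KOPN-8. SLBP, which binds the stem-loop, stood at 157 ± 13.4 CPM in control KOPN-8 and 48.6 ± 2.64 CPM in control 697 (SD, n = 3 each), a log2 fold change of 1.69 (SE 0.0758, Benjamini-Hochberg adjusted p = 5.43e-16 by edgeR). NPAT, the activator of cluster gene transcription, stood at 85.3 ± 7.51 CPM in control KOPN-8 and 51.9 ± 4.10 CPM in control 697, a log2 fold change of 0.72. Of 23 genes for cluster gene transcription and stem-loop processing, 15 were higher and 4 lower in control KOPN-8, with a median log2 fold change of 0.30, where 36.6% of all genes tested were higher and 36.7% lower. Of 36 S-phase genes, 22 were higher and 4 lower, with a median of 0.24. RRM2, a subunit of ribonucleotide reductase, was called at 1.65 and UHRF1, which recruits the maintenance DNA methyltransferase, at -0.85. Of 23 histone chaperones 10 were higher and 6 lower, and of 15 polyadenylation factors 6 were higher and 4 lower, with shares of higher genes near that of all genes.

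Replacement and variant histones, which mostly carry poly-A tails throughout the cell cycle, were more often higher than lower in control KOPN-8. Of 16 listed, 12 were tested, and 7 were higher and 3 lower, beside the same 36.6% and 36.7% of all genes. H2AJ, an H2A variant gene, stood at 26.2 ± 1.82 CPM in control KOPN-8 (SD, n = 3) and had no count in control 697, so it was at least 394-fold higher against a floor of 3 counts over the group. The list also holds H2AW and H2BU1, histone genes on chromosome 1 that the symbol rule does not take as members. They had no count in control 697 either and were at least 45.7-fold and 20.8-fold higher in control KOPN-8. That direction is opposite to the one of the called members. H3-3B, a gene for the replacement histone H3.3, stood at 657 ± 8.39 CPM in control KOPN-8 and 491 ± 21.0 CPM in control 697, a log2 fold change of 0.42.

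Residual RNA without a poly-A tail also stood lower in control KOPN-8. The 26 such RNAs in the table summed to 5.65 to 10.3 CPM in control KOPN-8, against 13.3 to 15.5 CPM in control 697. Of the 3 tested, SNORA73B, a small nucleolar RNA, and RMRP, the RNA of a processing ribonuclease, were called at -1.46 and -1.38, while RN7SK, which holds the elongation factor P-TEFb, was not called at -0.35. In the fit of genes with at least 10 counts, 10 were tested, of which 3 were called lower and 0 higher. Over all genes in that fit 30.6% were lower and 30.1% higher, so the share of lower calls was near the background. Of the 10 log2 fold changes, 9 were below 0. The part that carry-over of RNA without a tail has in the difference of the histone genes was not tested.

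**Figure D4:**
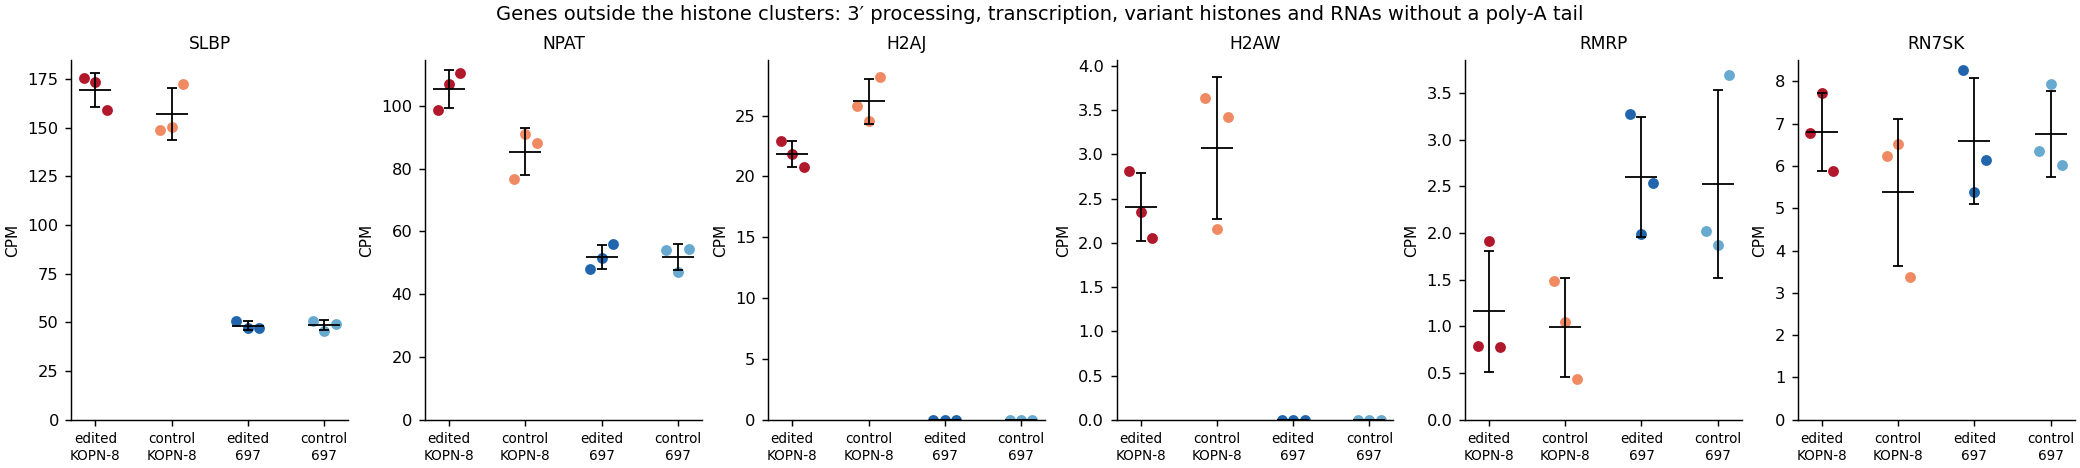
CPM per library (vertical) of SLBP, NPAT, H2AJ, H2AW, RMRP and RN7SK in edited KOPN-8, control KOPN-8, edited 697 and control 697. Points are libraries, lines the mean and bars the SD (n = 3). SLBP stands at 157 CPM in control KOPN-8 against 48.6 CPM in control 697, while H2AJ and H2AW have no count in 697.

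The edit in KOPN-8 went with few called members. Of the 25 tested, 3 were called lower in edited than in control KOPN-8 and 0 higher (Benjamini-Hochberg adjusted p under 0.05 by edgeR's quasi-likelihood test). Over all genes tested, 17.2% were lower and 11.5% higher, so the members' shares lay under the background in both directions. That background is not matched for level, and only 16 of the 47 genes averaged at least 1 CPM. At an unadjusted p under 0.05 edgeR had 7 lower and 3 higher members, and DESeq2 had 5 lower and 3 higher. In the fit of all 47 genes, 2 were lower, H2BC11 and H3C6, against 12.7% of genes. There the median log2 fold change of the 47 was 0.17, whereas over the 25 tested it was -0.39. The ranges did not overlap for 10 of the 47 lower and for 3 higher, against 20.5% lower and 16.4% higher over all genes with at least 10 counts.

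H3C6 stood at 1.38, 2.06 and 2.77 CPM in edited KOPN-8, against 4.01, 3.79 and 3.53 CPM in control KOPN-8. Every edited library lay under every control library. The log2 fold change was -0.86 (SE 0.243, Benjamini-Hochberg adjusted p = 0.00868 by edgeR), and without edited KOPN-8 library 1 it was -0.62 with an adjusted p of 0.0788 by edgeR. H2AC6 stood at 4.66, 4.48 and 4.77 CPM in edited KOPN-8, against 8.90, 7.86 and 7.23 CPM in control KOPN-8. These groups did not overlap either, and the log2 fold change was -0.77 (SE 0.265, Benjamini-Hochberg adjusted p = 0.0411 by edgeR). Its call was lost without any 1 of the 6 KOPN-8 libraries and in the fit of all genes with at least 10 counts, with adjusted p-values by edgeR or DESeq2 over its 12 alternatives from 0.00032 to 0.122.

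H2BC11, an H2B gene, stood at 1.70, 1.40 and 1.16 CPM in edited KOPN-8, against 2.60, 1.75 and 2.77 CPM in control KOPN-8. The ranges lay close without overlapping. The log2 fold change was -0.73 (SE 0.258, Benjamini-Hochberg adjusted p = 0.0354 by edgeR). Its call was lost with DESeq2 and without edited library 2 or 3 or control library 1 or 3. H2AC11, its head-to-head neighbour, had a log2 fold change of -0.54 that was not called, with an edgeR adjusted p of 0.0721.

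By type, the sums of H2A and H3 were lower in edited KOPN-8 with no overlap. H2A summed to 9.59, 10.8 and 9.53 CPM in edited KOPN-8, against 15.2, 13.6 and 13.5 CPM in control KOPN-8, a log2 ratio of -0.50. H3 summed to 4.19, 6.69 and 5.26 CPM in edited KOPN-8, against 7.79, 7.16 and 7.12 CPM in control KOPN-8, a log2 ratio of -0.45. The called H2AC6 and H3C6 had the most counts of their types and weigh most in these sums. In the fit with at least 10 counts, the median log2 fold change of the 10 H2A genes was 0.30, with 6 above 0 and 4 below. For the 9 H3 genes it was 0.05, with 5 above 0 and 4 below. Over those that passed the filter the medians were -0.46 for 6 H2A genes and -0.50 for 4 H3 genes. H1, H2B and H4 overlapped, with log2 ratios of 0.32, -0.11 and 0.33. H2BC9, an H2B gene at 1.77 ± 0.810 CPM in edited and 0.990 ± 0.107 CPM in control KOPN-8 (SD, n = 3 each), had a log2 fold change of 0.80 and an edgeR adjusted p of 0.0607. It was called with the replicate block, at 0.81 with an edgeR adjusted p of 0.0404, and without edited library 1, at 1.12 with an edgeR adjusted p of 0.00622.

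In the other lists, 17 of 36 S-phase genes were higher and 4 lower in edited KOPN-8, as were 7 and 1 of 23 chaperones, where 11.5% of all genes tested were higher and 17.2% lower. Among genes for histone transcription and processing 6 were higher and 3 lower. UHRF1 and MCM4, a subunit of the replicative helicase, were called at 0.70 and -0.60. MACROH2A1, a gene for a large H2A variant, was called at -0.68, and H2AZ1, a gene for the variant H2A.Z, at 0.22. RNAs without a tail summed to 10.3 to 11.5 CPM in edited KOPN-8 and 5.65 to 10.3 CPM in control KOPN-8, and the part they have in the histone values was not tested.

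The edit in 697 also went with few called members. Of the 25 tested, 2 were called lower in edited than in control 697 and 0 higher (Benjamini-Hochberg adjusted p under 0.05 by edgeR's quasi-likelihood test). Over all genes tested, 4.6% were lower and 4.85% higher. The share of lower members thus lay above the background here, on 2 genes, and that of higher members under it. At an unadjusted p under 0.05 edgeR had 0 higher members and DESeq2 also 0, while DESeq2 called 0 members in either direction and had 3 at an unadjusted p under 0.05. In the fit of all 47 genes 1 was lower, H2AC20, a share under the 3.55% of all genes in that fit. The ranges did not overlap for 7 of the 47 lower and for 1 higher, against 10.4% lower and 10.5% higher over all genes with at least 10 counts. Without the third control 697 library that fit called 1 lower, which need not be the same gene. The main fit without that library called H2AC6 and no longer H2AC20.

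H2AC20 had 11, 8 and 1 counts in edited 697, against 20, 26 and 24 counts in control 697. The groups did not overlap, and the edited libraries varied widely. The log2 fold change was -1.54 (SE 0.461, Benjamini-Hochberg adjusted p = 0.0355 by edgeR). Its call was lost with DESeq2 and without edited 697 library 2 or 3 or control 697 library 2 or 3. H3C8 stood at 1.49, 1.33 and 1.27 CPM in edited 697, against 1.90, 2.60 and 3.16 CPM in control 697. The groups did not overlap, and the log2 fold change was -0.89 (SE 0.283, Benjamini-Hochberg adjusted p = 0.0478 by edgeR). Its call was lost under 8 of 12 alternatives, among them each single library left out except control 697 library 1.

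With all libraries, H3 was the one type whose sum did not overlap between edited and control 697. It came to 11.98, 13.3 and 13.3 CPM in edited 697, against 17.3, 18.7 and 15.4 CPM in control 697, a log2 ratio of -0.41. H3C10 stood at 2.75, 3.31 and 3.12 CPM in edited 697, against 4.18, 5.14 and 4.44 CPM in control 697, with no overlap. Its log2 fold change of -0.59 (Benjamini-Hochberg adjusted p = 0.0767 by edgeR) was not called. The log2 ratio of all 47 genes was -0.15, and -0.27 without the third control 697 library. Without that library H2A and H2B did not overlap either. H2A summed to 31.2, 38.7 and 34.4 CPM in edited 697, against 46.2 and 42.4 CPM in the remaining control 697 libraries. H2B summed to 60.3, 60.7 and 47.8 CPM in edited 697, against 67.3 and 68.2 CPM in those control libraries. H2AC6 stood at 19.6, 24.3 and 20.6 CPM in edited 697, against 31.5, 26.3 and 13.9 CPM in control 697, and was not called. Without the third control 697 library it was called at -0.43 (Benjamini-Hochberg adjusted p = 0.0421 by edgeR). In the other lists, PRIM1, a primase subunit, was the single S-phase gene called, at 0.42.

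**Figure D5:**
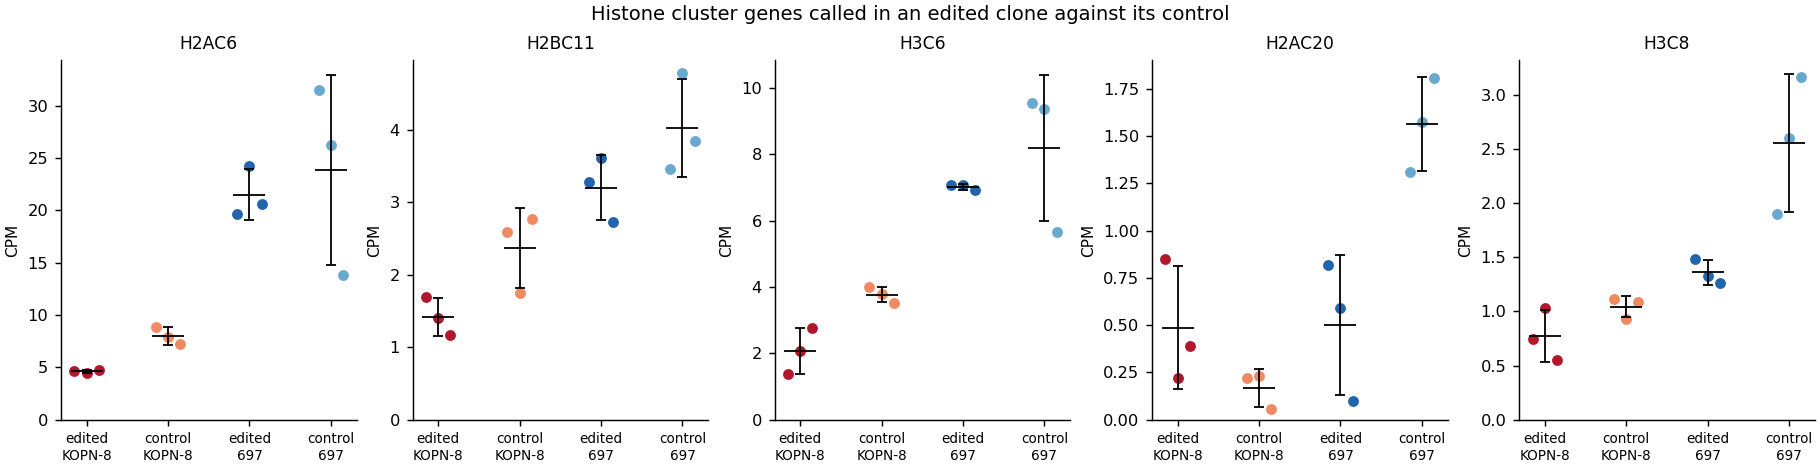
CPM per library (vertical) of the 5 histone cluster genes called in an edited clone against its control, in edited KOPN-8, control KOPN-8, edited 697 and control 697. Points are libraries, lines the mean and bars the SD (n = 3). H3C6 lies at 1.38 to 2.77 CPM in edited KOPN-8 against 3.53 to 4.01 CPM in control KOPN-8.

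The lines' responses differed by the test for 1 member. H2AC20 had 16, 3 and 7 counts in edited KOPN-8, against 3, 4 and 1 counts in control KOPN-8, so that its log2 fold change was 1.59 in KOPN-8 and -1.54 in 697. The difference of these changes was 3.13 (SE 0.802, Benjamini-Hochberg adjusted p = 0.00640 by edgeR). Over all genes tested, 19.5% differed between the lines, so that 1 of 25 members is under the background, which is not matched for level. Without edited KOPN-8 library 1, which held 16 of the 26 counts of its group, the difference was 2.44 with an edgeR adjusted p of 0.0692. H2BC21, the head-to-head neighbour of H2AC20, had log2 fold changes of -0.38 in KOPN-8 and -0.27 in 697. H3C6, H2AC6 and H2BC11, called in KOPN-8, differed between the lines by -0.63, -0.62 and -0.41 on the log2 scale, and H3C8, called in 697, by 0.44, none of which was called.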

How the data were processed

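RNA was poly-A selected and made into stranded libraries, per the labels' protocols. The submitters' processing notes name Trimmomatic, STAR, DESeq2 and hg19; counter, annotation and multi-mapped reads are not described. The authors deposited whole-number counts per gene symbol. Their normalized table was not used.

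All 12 libraries entered 1 edgeR 4.0.16 model under R 4.3.3, with a mean for each of the 4 groups, TMM factors and the filterByExpr minimum. Robust quasi-likelihood F tests were adjusted by Benjamini-Hochberg across 15218 genes, with calls under 0.05. A second fit kept all 20809 genes with at least 10 counts. Alternatives were RLE and upper-quartile scaling, a replicate block, fits of only the groups compared, DESeq2 1.42.0 and each library left out. The fit was tested on simulated data. Named were members called for an edit or for the difference of edits, the 3 highest of each type, the extremes of the baseline calls, and up to 4 called genes of each other list. The members and lists were chosen with earlier results of these data known.

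Replicates differed by more than sampling noise (chi-square per degree of freedom 2.91 to 10.7). Same-numbered libraries of edited and control 697 had deviations correlated at r = 0.105, 0.207 and 0.104, all over 0.1, which meets the limit set for a pairing. The values given carry no block, and the fit with the replicate block is an alternative. Floors of 3 counts cover counting error only. Models came from GENCODE v29 (GRCh38) for all 47 genes.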

Additional observations from a re-analysis of the deposited data

Results flagged for a closer look

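H2AC20 was singled out because its change with the edit differed between the lines by the test of the difference itself. The KOPN-8 change minus the 697 change was 3.13 in log2 units (SE 0.802, Benjamini-Hochberg adjusted p = 0.00640 by edgeR). It rests on 16, 3 and 7 counts in edited KOPN-8, 3, 4 and 1 in control KOPN-8, 11, 8 and 1 in edited 697 and 20, 26 and 24 in control 697. Over its 17 alternatives the difference ran from 2.44 to 3.63, with adjusted p from 0.00335 to 0.0692 (edgeR or DESeq2, Benjamini-Hochberg), and it was lost only without edited KOPN-8 library 1.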

How the results depend on the processing

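Scaling by RLE or by upper quartile changed no count of called members. The 697 count of 2 became 1 with all genes of at least 10 counts, 1 with only the groups compared and 0 with DESeq2, which had 3 members at an unadjusted p under 0.05 where edgeR also had 3. The cause of these changes was not tested. The summed H1 log2 ratio at baseline was -0.49 without H1-2, against -1.17 with it. Leaving out each library in turn gave 1 to 4 called members for the KOPN-8 edit, 0 to 2 for the 697 edit, 1 to 2 for the difference of the lines and 16 to 21 at baseline. The KOPN-8 count was 1 without control KOPN-8 library 1 or 3. The 697 count was 0 without edited 697 library 2 or 3 or control 697 library 2, and 1 without edited 697 library 1 or control 697 library 3, the last being H2AC6. The difference of the lines gave H2BC4 and H2BC9 in place of H2AC20 without edited KOPN-8 library 1, and added H2AC6 without control 697 library 1. The replicate block gave 4 calls for the KOPN-8 edit, adding H2BC9 at 0.81 (Benjamini-Hochberg adjusted p = 0.0404 by edgeR), and 2, 1 and 19 for the 697 edit, the difference of the lines and the baseline, with no call lost. In KOPN-8 same-numbered libraries had deviations correlated at r = 0.0508, 0.0362 and 0.0743, each the best match of its library, so that they share a number without a shown pairing. Among values of single called genes under alternatives, 266 kept direction and call, 37 kept direction only and 0 turned round. Only 25 of the 47 genes passed the filter on low counts, and small changes of the others were not detectable at this depth. The difference of the lines with only the groups compared was not run.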

Other observations

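Among the rows left out as pseudogenes, H2BC20P with 3340 counts and H2BC19P with 2126 counts over the 12 libraries were comparable with the members that had most counts, and H2BC20P had more than any member. These counts are not scaled by length. The exon length was 6440 bases for H2BC20P and 3612 for H2BC19P, against 381 for H2BC12, the member with most counts. H2BC20P stood at 9.57 ± 1.95 CPM in edited and 14.8 ± 1.60 CPM in control KOPN-8 (SD, n = 3 each), a log2 fold change of -0.62 (Benjamini-Hochberg adjusted p = 0.000627 by edgeR). H2BC19P stood at 7.33 ± 0.752 CPM in edited and 11.8 ± 0.812 CPM in control KOPN-8 (SD, n = 3 each), a log2 fold change of -0.68 (Benjamini-Hochberg adjusted p = 0.000545 by edgeR). In 697 the changes were 0.04 and 0.11 and were not called. The difference of the lines' changes was called for both, at -0.65 for H2BC20P and -0.78 for H2BC19P. Pseudogenes can share reads with their parent genes. They were chosen for mention after their values were seen.

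MACROH2A1 was called lower with the edit in both lines, at -0.68 in KOPN-8 and -0.25 in 697, and its changes differed between the lines by -0.43 (Benjamini-Hochberg adjusted p = 0.000864 by edgeR).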
